A study of Rattus norvegicus with 58 samples.

Results

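Liver gene expression of 23 glucose-intolerant heterogeneous stock (HS) rats was compared with that of 23 HS rats of normal glucose tolerance. The 2 groups were taken from the titles of the arrays, which name each HS liver as high or low in glucose, and together they make up 46 of the 58 arrays of the study. HS rats are outbred animals that descend from several inbred strains, so that every rat carries its own mosaic of founder chromosomes. All of these rats were male, aged 17 weeks, fed freely, housed in pairs and fasted overnight before the liver was frozen, and the labels name no transgene or drug. The other 12 arrays come from inbred ACI, BN, BUF, F344, M520 and WKY rats, 2 arrays a strain, and serve below only to show the level of a gene in a uniform genetic background.

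Fasting glucose release, glycogen turnover and fat synthesis in the liver are set by insulin, glucagon and glucocorticoids. In insulin resistance the liver is known to go on making glucose while the fat synthesis driven by Srebf1 continues. Genes may therefore differ between the groups in their mean, in how far rats of a group scatter, or in how strongly 2 genes move together, and the 3 properties were examined in turn. The p-values measure the spread between livers of separate rats, and nothing in the labels says which rats shared a family or a cage. Also, in whole liver tissue fewer cells of a type and less RNA per cell cannot be told apart.

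Values are on the log2 scale for 31042 probe sets, where a step of 1 means a 2-fold change. A single symbol was available for 20826 probe sets, and the brightest of each gene gave 14217 genes. The 9 hepatocyte markers that could be looked up, among them Alb, Ttr and Hnf4a, lay at or above the 98.4 percentile of all levels. No rat stood apart by group: the median distance of a rat's probe sets from its own group median ran from 0.0924 to 0.157 in intolerant rats and from 0.0931 to 0.161 in normal rats, and the group means of 0.114 ± 0.018 and 0.113 ± 0.020 (n = 23 each, ± SD) did not differ in a two-sided permutation test (p = 0.814). The 4 rats farthest from their group were intolerant rat 41 and normal rats 21, 39 and 16, and results that change without them are marked below.

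Among the 14217 genes the largest difference in mean was that of Ubd, which encodes a ubiquitin-like modifier known to be induced by interferon gamma and tumour necrosis factor, and next to it on chromosome 20 other genes of the major histocompatibility region differed too. The promoters of Ubd and of the class I gene RT1-CE10 are shown because both hold a form of the binding element of NF-kB, the factor downstream of tumour necrosis factor. The element was picked after these 2 promoters had been read, with the base at which they differ left free in the search. In the RefSeq sequences of GRCr8, printed 5′ to 3′ on the minus strand with the element in capitals, the stretch of Ubd lies at chr20:1392686-1392785 and spans base 100 to base 1 before the start of the gene, and that of RT1-CE10 lies at chr20:3385120-3385219 and spans bases 240 to 141 before the start.
Ubd: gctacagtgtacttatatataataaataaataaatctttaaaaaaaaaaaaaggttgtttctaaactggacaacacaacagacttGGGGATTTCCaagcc
RT1-CE10: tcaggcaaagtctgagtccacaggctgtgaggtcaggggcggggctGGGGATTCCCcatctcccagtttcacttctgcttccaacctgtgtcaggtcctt
The element begins 15 bases before the start of Ubd and 194 bases before that of RT1-CE10. The element was set to match both promoters, so its rarity elsewhere carries no test for them. Searched on both strands of the 250 bases before the start, the element occurred in 32 of 11700 promoters of genes on the array (0.274%). An interferon response element, 2 copies of GAAA with 2 free bases between them, occurred in 311 of them (2.66%) and in 0 of the 14 promoters available for the chromosome 20 genes with p under 0.01 described next. A match describes the sequence and says nothing of binding.

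Across the whole array no probe set passed the test for the mean: limma with Benjamini-Hochberg adjustment called 0 of 31042 (percent called 0), with a smallest adjusted p of 0.137. Without adjustment, 2483 probe sets had p under 0.05, which is 8% of those tested. Over the 14217 genes, 468 were higher in intolerant rats at that p (3.29%) and 755 were lower (5.31%). Among the 9376 genes at or above the median level the counts were 415 higher and 439 lower, and among all probe sets at or above it 746 higher and 611 lower. The single genes below are therefore described by size.

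Ubd ran from 5.29 over a median of 9.20 to 10.8 in intolerant rats and from 5.0 over a median of 7.83 to 10.8 in normal rats. The rats lay at 2 separate levels with no value between 5.77 and 7.57, and 22 of 23 intolerant rats lay at the upper level against 14 of 23 normal rats. The means were 9.13 ± 1.04 in intolerant rats and 7.57 ± 1.93 in normal rats (n = 23 each, ± SD), a difference of 1.56 ± 0.44 (SE), or 2.95-fold, with adjusted p = 0.271 in limma. Among the inbred strains the ACI arrays read 10.53 and 10.28 and the F344 arrays 9.81 and 9.44, while the arrays of the other 4 strains lay at 5.67 or below, so that the 2 levels of the outbred rats were also found between strains.

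RT1-CE10 and RT1-CE12 are class I histocompatibility genes, whose products display peptides to CD8+ T cells. RT1-CE10 ran from 7.02 over 7.98 to 11.2 in intolerant rats and from 6.75 over 7.61 to 10.3 in normal rats. No rat read between 8.93 and 10.2, and 8 of 23 intolerant rats lay above this gap against 1 of 23 normal rats. The same 8 intolerant rats and the same normal rat were the ones above the gap of RT1-CE12, between 9.71 and 11.7. The difference in mean was 1.11 ± 0.31 for RT1-CE10 and 0.80 ± 0.27 for RT1-CE12 (SE, adjusted p = 0.271 and 0.445 in limma). None of the inbred arrays reached the upper level of either gene: the highest reading was 8.53 for RT1-CE10 and 10.04 for RT1-CE12. Both probe sets are of a kind whose probes also match related sequences, so the class I gene behind the upper level is uncertain.

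Other genes of the same neighbourhood differed as well. Psmb8, a catalytic subunit of the immunoproteasome, which cuts peptides for class I presentation, ran from 9.40 over 9.98 to 10.4 in intolerant rats and from 8.85 over 9.54 to 10.4 in normal rats. Of the intolerant rats 21 of 23 lay above the median of the normal rats. The difference was 0.38 ± 0.08 (SE, p = 3.17e-05, adjusted p = 0.179 in limma), and it passed the threshold without the 4 farthest rats, at 0.42 with adjusted p = 0.0385, and without normal rat 16 alone, at 0.42 with adjusted p = 0.0472. Normal rat 16, also among those 4, had the highest Psmb8 of the normal rats, 10.4. A larger difference was therefore bound to follow when it alone was left out. RT1-Bb, the beta chain of a class II molecule that presents peptides to CD4+ T cells, averaged 7.51 ± 0.64 in intolerant and 6.76 ± 1.22 in normal rats (n = 23 each, ± SD; adjusted p = 0.496 in limma), while a second, dim probe set of the gene averaged 3.06 in intolerant and 3.22 in normal rats. Most class II genes went the other way: 2 of 9 averaged higher in intolerant rats, and the median difference was -0.07. RT1-Ba, a class II alpha chain, was higher by its brightest probe set, at 8.26 ± 0.58 in intolerant and 7.90 ± 0.49 in normal rats (n = 23 each, ± SD; adjusted p = 0.559 in limma). Its other probe sets were lower. One of them averaged 7.49 ± 1.27 in intolerant and 8.69 ± 1.08 in normal rats (n = 23 each, ± SD; adjusted p = 0.271 in limma), and was singled out after its values were seen. The rest differed by -0.19 and -0.25. AA926063 averaged 6.56 ± 0.86 in intolerant and 5.61 ± 1.37 in normal rats (adjusted p = 0.445 in limma).

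Rats at 2 levels were found for 10 genes when a gap of at least 1 on the log2 scale, with at least 5 rats on each side, was looked for after the values had been seen. Besides Ubd, RT1-CE10 and RT1-CE12, Tmem14a had 10 intolerant and 5 normal rats at its upper level, RGD1309362 had 20 and 16, and Fam111a had 10 and 14. The other 4, Crebl2, Mlc1, Ugt2b and Wdr90, had counts that differed by no more than 2 rats between the groups. Of the 8 intolerant rats at the upper level of RT1-CE10, 7 were also at the upper level of Ubd. The 1 normal rat at the upper level of RT1-CE10 was at the lower level of Ubd. Since only 1 intolerant rat was at the lower level of Ubd, these counts cannot show whether the 2 upper levels go together.

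In the opposite direction, Ltb, which encodes lymphotoxin beta, a membrane-bound cytokine of lymphocytes, averaged 6.54 ± 0.84 in intolerant rats and 7.35 ± 0.85 in normal rats (n = 23 each, ± SD; adjusted p = 0.311 in limma). Gabbr1, a subunit of the GABA-B receptor and the neighbour of Ubd, averaged 5.80 ± 0.21 in intolerant and 6.21 ± 0.46 in normal rats (adjusted p = 0.237 in limma), while its other probe sets differed by -0.15 to 0.0037. It passed at -0.45 without the 4 farthest rats (adjusted p = 0.0385) and at -0.47 without normal rat 21 alone (adjusted p = 0.0238). The second call was picked after each of the 46 rats had been left out in turn. Markers of lymphocytes and neutrophils did not separate the groups: 5 of 10 averaged higher in intolerant rats, and their summed level ran from 7.84 to 8.61 in intolerant and from 7.95 to 8.79 in normal rats.

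**Figure D1:**
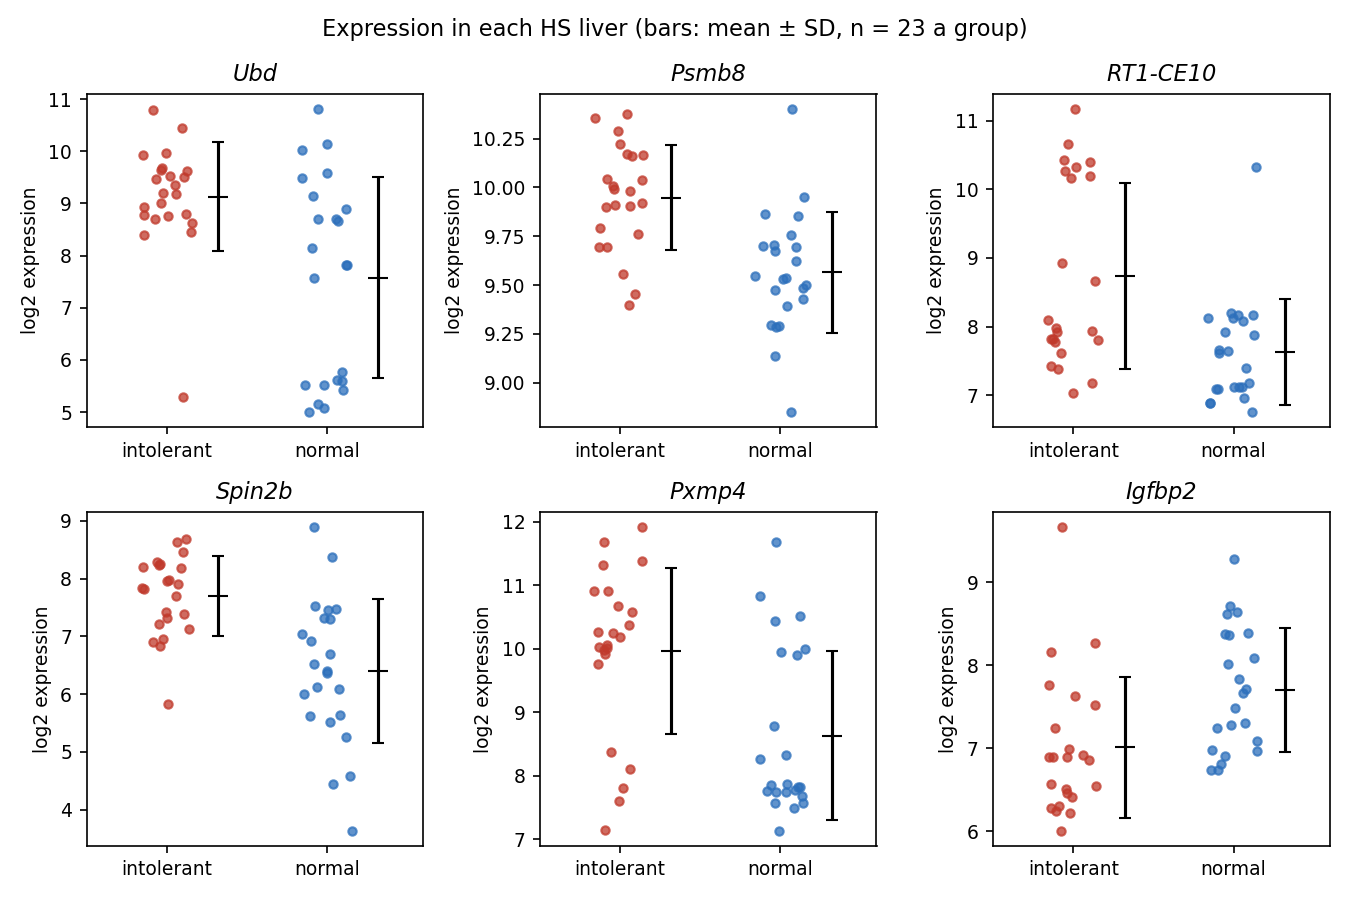
Log2 expression (vertical axis) of 6 genes in every HS liver, with the intolerant rats in red on the left, the normal rats in blue on the right and bars for the mean ± SD of 23 rats. Ubd and RT1-CE10 show rats at 2 separate levels, with 22 and 8 intolerant rats at the upper one against 14 and 1 normal rats, whereas Psmb8 and Igfbp2 are shifted with overlapping ranges.

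By gene order in RefSeq, 132 measured genes lie between RT1-M3-1 and Hmga1 on chromosome 20, a stretch that holds Ubd, Gabbr1, the RT1 genes above, Psmb8, Ltb and AA926063. Of these, 16 (12.1%) had an unadjusted p under 0.01 for the mean, 8 of them higher and 8 lower in intolerant rats, against 315 of all 14161 placed genes (2.22%) and 4 of the other 267 genes of chromosome 20 (1.498%). The ends of the stretch were set after the p-values had been seen, each at a gene with a small p, so its share carries no test. Neighbouring genes are inherited together in outbred rats and are not independent counts. Leaving out each of the 46 rats in turn moved the 16 genes to between 14 and 20, and leaving out the 4 farthest rats gave 17. Besides the genes above, the 16 included Daxx, a chaperone of histone H3.3, at 0.16 higher, and Abhd16a, a phospholipid hydrolase, and Vps52, a tethering subunit for transport to the Golgi, at -0.20 and -0.15.

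**Figure D2:**
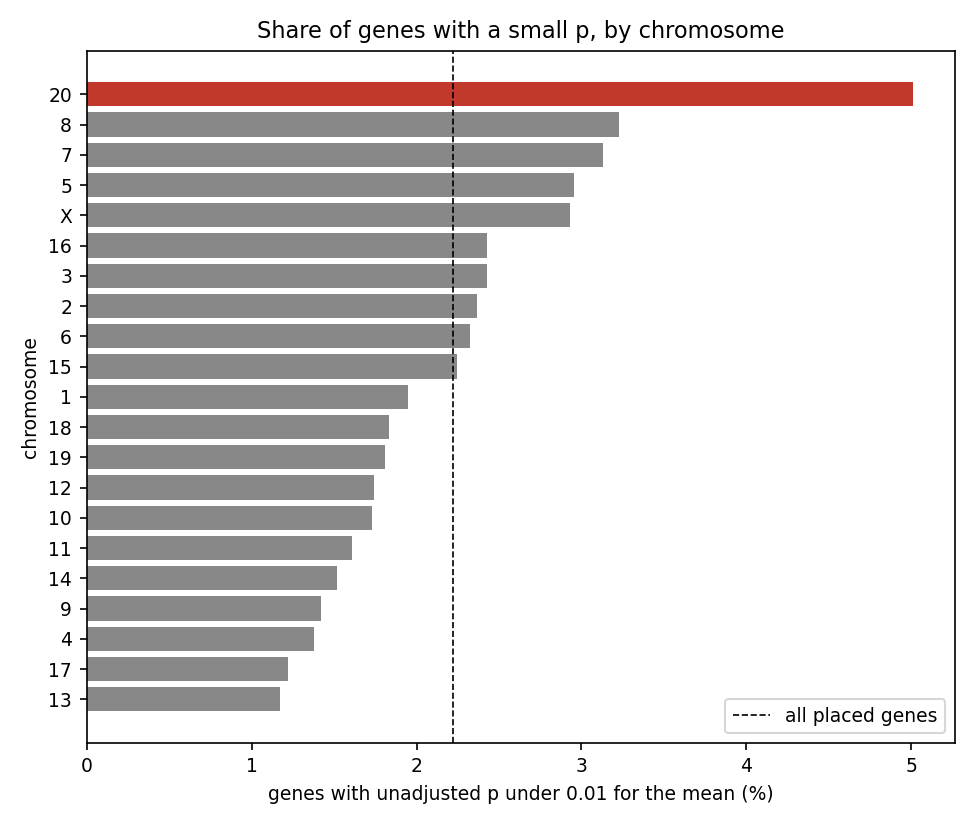
Share of genes with an unadjusted p under 0.01 for the difference in mean (horizontal axis, %) on each chromosome (vertical axis), with all placed genes as a dashed line at 2.22%. Chromosome 20, in red, had 20 of 399 genes (5.01%), and the other chromosomes lay between 1.17% and 3.23%.

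Outside this region 2 shorter runs of genes were seen, also picked after the fact. Their ends were likewise set at genes with a small p, so their shares carry no test. Here too, neighbouring genes are not independent counts. On chromosome 2, 5 of the 13 measured genes from Tmem167a to Zfyve16 had p under 0.01 (38.5%, against 2.22% of all placed genes). Among them was Zcchc9, an RNA-binding zinc-finger gene, at -0.33 (adjusted p = 0.179 in limma). On chromosome X, 8 of the 52 measured genes from Gprasp2 to Dock11 had such a p (15.4%). These 8 included Serpina7, which encodes the thyroxine-binding globulin of plasma and averaged 7.71 ± 0.97 in intolerant and 8.51 ± 0.70 in normal rats (n = 23 each, ± SD; adjusted p = 0.344 in limma), and Dock11, an exchange factor for the GTPase Cdc42, which averaged 6.33 ± 1.04 in intolerant and 7.10 ± 0.97 in normal rats (adjusted p = 0.496 in limma).

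Genes elsewhere with large differences belonged to several kinds of liver function. Pxmp4, a membrane protein of peroxisomes, ran from 7.14 over 10.2 to 11.9 in intolerant rats and from 7.14 over 7.85 to 11.7 in normal rats, so that the ranges were nearly the same while 20 of 23 intolerant rats lay above the normal median. Its difference was 1.33 ± 0.37 (SE, adjusted p = 0.271 in limma), and a second probe set of Pxmp4 gave 1.03. The arrays of BN and BUF read 10.6 to 11.6 for Pxmp4, and those of the other 4 strains 7.46 to 7.95.

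Spin2b, a member of the spindlin family of histone readers, ran from 5.82 over 7.84 to 8.68 in intolerant rats and from 3.64 over 6.41 to 8.89 in normal rats. All but 1 of the 23 intolerant rats lay above the normal median, and 7 normal rats lay below every intolerant one. The difference of 1.30 ± 0.29 (SE) had adjusted p = 0.179 in limma, passed at 1.53 without the 4 farthest rats (adjusted p = 0.0385) and passed at 1.45 with array weights (adjusted p = 0.0393).

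Igfbp2, a binding protein of insulin-like growth factors that insulin is known to repress in liver, ran from 6.01 over 6.89 to 9.66 in intolerant rats and from 6.74 over 7.66 to 9.29 in normal rats. The ranges overlapped, but 10 intolerant rats lay below every normal rat. The difference was -0.69 ± 0.23 (SE, adjusted p = 0.421 in limma). Of the other 10 members of the list of the insulin-like growth factor system, none had p under 0.05 for the mean.

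Ephx2, the soluble epoxide hydrolase that inactivates fatty acid epoxides, averaged 11.22 ± 0.41 in intolerant and 10.55 ± 1.148 in normal rats (n = 23 each, ± SD; adjusted p = 0.481 in limma). Here 4 normal rats lay below the lowest intolerant rat at 10.3, the lowest at 7.68. Of the intolerant rats 18 of 23 lay above the normal median. ACI and WKY arrays read 7.0 to 7.90 for Ephx2, and the arrays of the other 4 strains 10.3 to 11.2. Cyp4a8, a fatty acid omega-hydroxylase, was 0.69 ± 0.25 higher (SE, adjusted p = 0.481 in limma) with overlapping ranges of 7.33 to 10.65 in intolerant and 6.41 to 9.78 in normal rats.

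The remaining genes of large difference had adjusted p between 0.248 and 0.481 in limma. Higher means in intolerant rats were seen for Esm1 (0.91), a proteoglycan of endothelial cells, Stac3 (0.76), an adaptor best known from muscle, and Prss32 (0.66), a serine protease. Lower means were seen for Coch (-0.86), the extracellular protein cochlin, Acsm5 (-0.61), an activating enzyme of medium-chain fatty acids, LOC102546992 (-0.52), and Cpt1b (-0.49), the muscle form of the carnitine transferase that admits fatty acids to mitochondria.

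Of the metabolic lists, glycogen metabolism, fatty acid synthesis, glycolysis and oxidative phosphorylation had the largest shares of members higher in intolerant rats. No member of these lists passed the adjusted test. Glycogen metabolism had 8 of 9 measured genes higher (88.9%), with a median difference of 0.06, and 6 of 9 with quantile normalisation. At an unadjusted p under 0.05 in limma, 1 of the 9 was higher and 0 lower, where 3.29% of all genes were higher and 5.31% lower. Of 24 measured genes of fatty acid and triglyceride synthesis 19 averaged higher in intolerant rats (79.2%, against 42.5% of all genes), with a median difference of 0.07 against -0.01, and 5 were higher and 0 lower at an unadjusted p under 0.05. Elovl5, which elongates polyunsaturated fatty acids, ran from 11.7 over 12.1 to 12.6 in intolerant rats and from 11.2 over 11.9 to 12.3 in normal rats, so that 8 intolerant rats lay above every normal rat (difference 0.27, adjusted p = 0.237 in limma). Scd, a desaturase of saturated fatty acids, ran from 8.33 over 11.31 to 13.16 in intolerant rats and from 7.14 over 10.55 to 12.21 in normal rats, and 4 normal rats lay below every intolerant rat (difference 0.94, adjusted p = 0.562 in limma).

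Glycolysis had 11 of 15 members higher, 4 of them at p under 0.05 and none lower at that p, where 3.29% of all genes were higher and 5.31% lower. The differences included 0.18 for Ldha, lactate dehydrogenase A, 0.21 for Eno1, an enolase, and 0.29 for Pklr, the liver pyruvate kinase, for which 22 of 23 intolerant rats lay above the normal median (adjusted p from 0.366 to 0.433 in limma). Oxidative phosphorylation, the respiratory chain and ATP synthase, had 32 of 40 higher with a median of 0.05, 4 of them at p under 0.05 and 1 lower at that p, against the same shares of all genes. Ndufa8 of complex I had the smallest p of the list, at 0.13 (p = 0.00369, adjusted p = 0.422 in limma). Most members of these lists were bright, and the 9376 genes at or above the median level leaned less to lower means, with 415 higher and 439 lower at p under 0.05. With array median centring 6924 of all 14217 genes averaged higher. The lists then had 8 of 9 for glycogen metabolism, 19 of 24 for fatty acid synthesis, 11 of 15 for glycolysis and 33 of 40 for oxidative phosphorylation. Fatty acid oxidation had 10 of 22 higher, cholesterol synthesis 7 of 15, fatty acid uptake 5 of 10 and gluconeogenesis 5 of 11, shares near that of all genes. Among apolipoproteins, Apoa4, which is secreted on lipoproteins, averaged 12.39 ± 0.32 in intolerant and 11.97 ± 0.44 in normal rats, and Apon averaged 11.73 ± 0.19 in intolerant and 11.95 ± 0.19 in normal rats (n = 23 each, ± SD), with 8 of 15 members of that list higher.

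Markers of endothelium, Kupffer cells and stellate cells mostly averaged lower in intolerant rats, whereas bile duct markers had 3 of 6 higher and erythrocyte markers 2 of 4. None of 13 markers of liver endothelium and 1 of 12 markers of Kupffer cells averaged higher in intolerant rats, with summed levels from 11.2 to 12.1 in intolerant against 11.4 to 12.1 in normal rats for endothelium and from 12.3 to 13.3 against 12.2 to 13.6 for Kupffer cells. Without the 4 farthest rats the counts were 1 of 13 and 3 of 12. Of stellate cell and matrix markers 3 of 14 averaged higher, where 42.5% of all genes did. At an unadjusted p under 0.05 in limma, 2 endothelial, 1 Kupffer cell and 2 stellate cell markers were lower, where 5.31% of all genes were. Kupffer cell markers were correlated with each other (median r 0.640 in intolerant and 0.623 in normal rats), so their counts are not independent. Whether these markers have a part in the lean of the metabolic lists was not tested.

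The spread of a gene was compared by the absolute deviations of the rats from their own group median, a moderated Brown-Forsythe test run in limma. It called 0 of 31042 probe sets (percent called 0), with a smallest unadjusted p of 8.54e-05 and a smallest adjusted p of 0.9997. Without adjustment, 1171 probe sets had p under 0.05 (3.77%). These were 627 wider and 544 narrower in intolerant rats. Over the genes, 253 were wider in intolerant rats at that p (1.78%) and 290 narrower (2.04%). The median ratio of SDs, intolerant over normal, was 1.008 over all genes, with an interquartile range from 0.864 to 1.173, and the total variance over all probe sets was 1923 in intolerant and 1839 in normal rats.

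Ubd had the smallest p of any gene for spread (p = 0.000187, adjusted p = 0.9997 in limma). Its SD ratio was 0.54, because all but 1 intolerant rat lay at the upper level while the normal rats were divided. Without that rat, intolerant rat 4, the spread of Ubd passed at a difference of -1.16 in mean absolute deviation (adjusted p = 0.0393). A narrower spread of the intolerant rats was bound to follow, as rat 4 was the most extreme of them. RT1-CE10 and RT1-CE12 had ratios of 1.76 and 2.07 (95% intervals 1.148 to 2.71 and 1.35 to 3.18), since their upper level was mostly held by intolerant rats. These intervals assume normally distributed values, which genes at 2 levels do not have. The Brown-Forsythe test gave the 2 genes unadjusted p = 0.022 and 0.011, and neither passed after adjustment. Without the 1 normal rat at the upper level the ratios were 2.68 and 4.95. A rise was bound to follow, as that rat was the most extreme of its group and no intolerant rat was left out.

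Among the genes of smallest p that were wider in intolerant rats, Dgat2, which makes triglyceride, ran from 10.96 over 11.32 to 11.78 in intolerant rats and from 11.12 over 11.27 to 11.54 in normal rats. In this gene 6 intolerant rats lay above and 4 below every normal rat. The SD ratio was 1.91 (95% interval 1.25 to 2.94, p = 0.00151, adjusted p = 0.9997 in limma), but a second probe set of Dgat2 gave 0.942. Serpina12, the adipokine vaspin, had a ratio of 2.70, with 3 intolerant rats above and 8 below every normal rat. Magoh, a core protein of the exon junction complex, had 2.08, and Tpst1, a sulfotransferase of protein tyrosines, 1.74. The other 6 of the 10 genes, Ptf1a, Ptprdl, Il1r2, Ankrd35, Pdlim3 and Hoxb7, were dim, Pdlim3 being the brightest with means of 5.09 in intolerant and 5.11 in normal rats. Serpina12, at 5.41 and 5.47 in the same groups, was close to the median of all values, 5.37.

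Narrower in intolerant rats were Arhgap9, a GTPase activator of blood cells (SD ratio 0.627), Prom1, a membrane protein of progenitor cells (0.416), Fcgr3a, an Fc receptor (0.580), and Irf9, the DNA-binding subunit of the interferon factor ISGF3 (0.572). Acot1, which hydrolyses acyl-CoA, ran from 2.80 over 3.45 to 5.17 in intolerant rats and from 2.65 over 4.43 to 7.75 in normal rats, and 8 normal rats lay above every intolerant rat. Pced1a, Epb41l5, Ypel2 and Cdc34 complete the list with ratios from 0.489 to 0.567. Other probe sets gave ratios of 1.042 and 0.671 for Cdc34 and 0.848 for Irf9, and Prom1, Ypel2 and Acot1 were dim, below the median of all values.

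A wide spread could also come from a single animal. Cyp3a2, a drug-metabolising cytochrome of the liver, had an SD ratio of 3.65, which an F test of variances called (adjusted p = 0.00149), yet 1 intolerant rat read 10.46 while the next lowest read 13.4. Without that rat the ratio was 0.849, and the Brown-Forsythe test gave p = 0.338 with all rats.

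**Figure D3:**
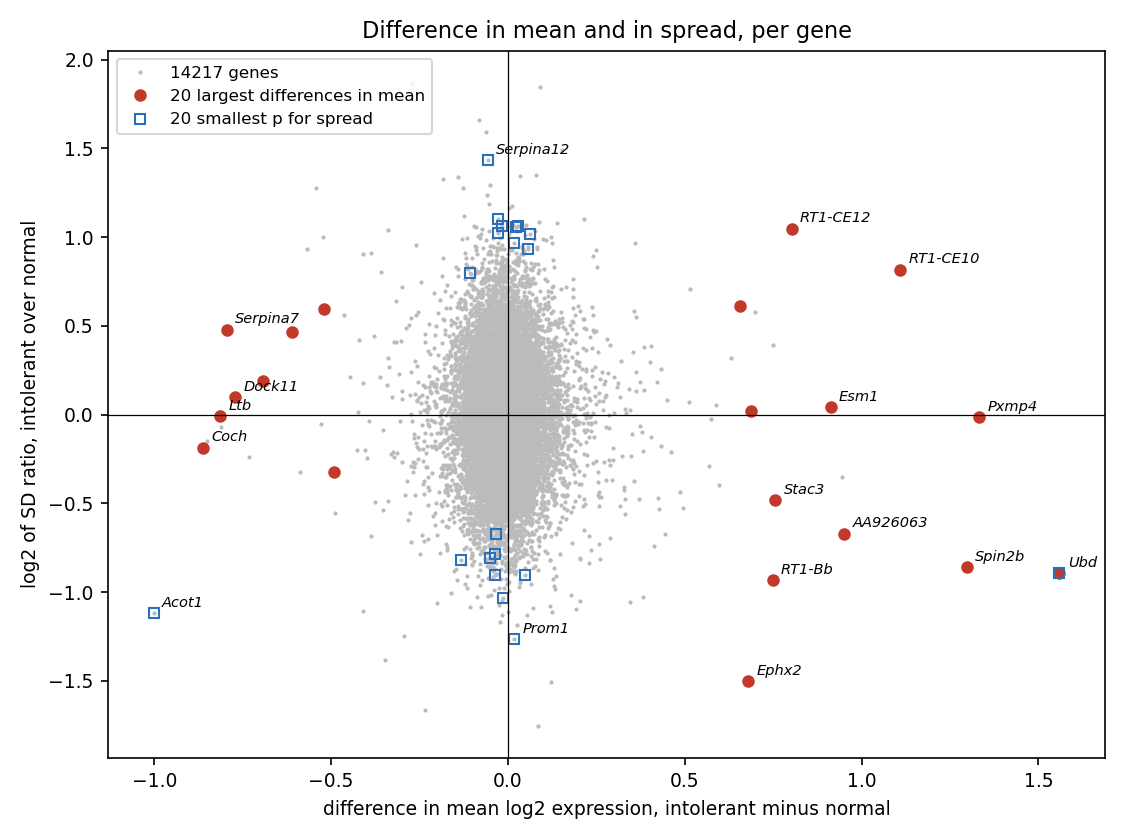
Difference in mean log2 expression, intolerant minus normal (horizontal axis), against the log2 of the SD ratio, intolerant over normal (vertical axis), for 14217 genes in grey. Filled red points are the 20 genes of largest difference among those with p under 0.01 and a level above the median, and open blue squares the 20 of smallest p for spread. Ubd belongs to both, at 1.56 and -0.89.

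Some gene lists scattered less in intolerant rats by their counts and medians. Of 21 measured genes of the type I interferon response 2 were wider in intolerant rats (9.52%, against 51.3% of all genes), with a median SD ratio of 0.748. At an unadjusted p under 0.05 in the Brown-Forsythe test, 0 were wider and 2 narrower, where 1.78% of all genes were wider and 2.04% narrower. These genes were correlated with each other (median r 0.302 in intolerant and 0.460 in normal rats), so their counts are not independent. Mx1, an antiviral GTPase, ran from 3.91 over 5.14 to 6.04 in intolerant rats and from 4.02 over 5.14 to 6.89 in normal rats, so that the medians were 5.14 in both groups, while 5 normal rats lay above every intolerant rat. Of 9 class II genes 1 was wider, with a median ratio of 0.722, 0 wider and 2 narrower at p under 0.05, against the same shares of all genes. Class II genes were also correlated with each other (median r 0.589 in intolerant and 0.597 in normal rats). Cd74, the invariant chain, and RT1-DMb, a peptide loader, had ratios of 0.614 and 0.596. Of 12 Kupffer cell markers 2 were wider (median ratio 0.772), and of 13 endothelial markers 11 were (1.13), values that stood beside these lists and whose part in them was not tested.

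The 15 measured clock genes had a median ratio of 0.735, with 5 wider. At p under 0.05 they had 0 wider and 4 narrower, where 1.78% of all genes were wider and 2.04% narrower. Clock genes such as Nr1d1 and Bmal1 were correlated, as given below, so these counts are not independent. Tef, a transcription factor of the clock output, ran from 7.51 over 7.82 to 8.45 in intolerant rats and from 7.21 over 7.77 to 8.99 in normal rats, and 5 normal rats lay above and 6 below every intolerant rat. The other 2 probe sets of Tef gave ratios of 0.594 and 0.679, against 0.530 for the brightest. Npas2, a partner of Bmal1, ran from 6.34 over 7.49 to 8.31 in intolerant rats and from 4.19 over 7.34 to 8.70 in normal rats, with 5 normal rats below every intolerant one. The labels give no hour of killing.

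Fatty acid synthesis had 4 of 24 genes wider and a median ratio of 0.842. This pattern moved without the 4 farthest rats, 3 of which were normal, to 9 of 24 and 0.963. Oxidative phosphorylation likewise had 10 of 40 wider with all rats and 25 of 40 without those 4, while all genes had a median ratio of 1.059 there. Without them the clock had 4 of 15 with a median ratio of 0.753, the interferon list at 4 of 21 with 0.815 and class II at 2 of 9 with 0.689. Cholesterol synthesis, wider in 11 of 15 genes with all rats, had 6 of 15 without them.

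The last property was the correlation between genes across the rats of a group. Pearson's r was computed for all 43950000 pairs of the 9376 genes whose mean was at or above the median of all values, 5.37. In intolerant rats 1286634 pairs were correlated after adjustment over all pairs (2.93%), and in normal rats 1522876 pairs were (3.47%). Pairs correlated in both groups with the same sign numbered 444386, or 34.5% of those of intolerant rats and 29.2% of those of normal rats. The median r over all pairs was 0.026 in intolerant and 0.013 in normal rats, and the median absolute r was 0.205 and 0.210.

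The difference between the groups, tested by Fisher's z for each pair, passed for no pair (percent called 0), with a smallest adjusted p of 0.0789. At an unadjusted p under 0.05 there were 2056155 pairs, or 4.68%, and the standard deviation of the z values was 1.003. With 23 rats a group the standard error of the z difference was 0.316, so that only very large changes of correlation could pass over this number of pairs. In all, 51 pairs were followed by name: 32 pairs of metabolic, clock, immune and marker genes, the 12 pairs of largest difference, and 7 neighbouring pairs on chromosome 20 picked later. P-values for them below are from permutations, two-sided, and adjusted values are over all pairs.

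Fasn and Acly, which make fatty acids and supply their acetyl-CoA, were tightly coupled in both groups. In intolerant rats r was 0.93 and Spearman's rho 0.94 (p = 1e-05 for each, the smallest that the permutations can give, adjusted p = 1.15e-05), and in normal rats r was 0.90 and rho 0.91 (p = 1e-05 for each, adjusted p = 5.91e-05). Without the 2 rats of most extreme Fasn, r was 0.91 in intolerant and 0.87 in normal rats. The 2 groups differed by 0.165 in Fisher's z, with a 95% interval from -0.455 to 0.785.

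Other fixed pairs with Fasn differed in both directions by their values, and none passed the test of the difference. Fasn and Srebf1, the sterol-regulatory factor that carries the insulin signal to fat synthesis, had r = 0.38 and rho = 0.44 in intolerant rats (p = 0.0756 and 0.0353, adjusted p = 0.361) and r = 0.71 and rho = 0.61 in normal rats (p = 0.00022 and 0.00245, adjusted p = 0.0140). Without the 2 rats of most extreme Fasn, r was 0.32 and 0.62. The difference in z was -0.480 with a 95% interval from -1.10 to 0.140 and a permutation p of 0.141 (adjusted p = 0.994).

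Fasn and Pklr, the liver pyruvate kinase that answers to glucose, had r = 0.33 and rho = 0.41 in intolerant rats (p = 0.129 and 0.0546, adjusted p = 0.465, r = 0.24 without the 2 extreme rats) and r = 0.69 and rho = 0.62 in normal rats (p = 0.00017 and 0.00193, adjusted p = 0.0169, r = 0.60 without them). Scd and Fasn had r = -0.01 and rho = 0.05 in intolerant rats (p = 0.954 and 0.826) and r = 0.44 and rho = 0.44 in normal rats (p = 0.0340 and 0.0367, adjusted p = 0.236). Without the 2 rats of most extreme Scd these were 0.24 and 0.65. The z difference of Scd and Fasn ran from -1.11 to 0.131 (95% interval, permutation p = 0.127).

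Igfbp2 ran against Fasn, with r = -0.26 and rho = -0.31 in intolerant rats (p = 0.228 and 0.156, r = -0.20 without the 2 rats of most extreme Igfbp2). In normal rats r was -0.65 and rho -0.67 (p = 0.00083 and 0.00061, adjusted p = 0.0316, r = -0.62 without them). The difference in z was 0.509 with a 95% interval from -0.110 to 1.13, a permutation p of 0.0518 and an adjusted p of 0.991. In the opposite direction, Elovl6, an elongase of saturated fatty acids, and Fasn had r = 0.75 and rho = 0.74 in intolerant rats (p = 7e-05 and 8e-05, r = 0.77 without the 2 rats of most extreme Elovl6) and r = 0.48 and rho = 0.41 in normal rats (p = 0.0195 and 0.0535, r = 0.30 without them). Thrsp, a nuclear protein that promotes fat synthesis, and Fasn had r = 0.49 and rho = 0.55 in intolerant rats (p = 0.0174 and 0.00689, adjusted p = 0.182, r = 0.59 without the 2 rats of most extreme Thrsp) and r = 0.39 and rho = 0.28 in normal rats (p = 0.0665 and 0.193, adjusted p = 0.326, r = 0.28 without them). The permutation p of the group difference was 0.161 for Elovl6 and 0.705 for Thrsp. Across the list of fatty acid synthesis the median r over 190 pairs was 0.105 in intolerant and 0.187 in normal rats.

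Some clock and immune pairs were correlated in both groups. Nr1d1, the clock repressor REV-ERB alpha, and Bmal1, its target, had r = -0.76 and rho = -0.77 in intolerant rats (p = 5e-05 and 3e-05, adjusted p = 0.00609) and r = -0.69 and rho = -0.76 in normal rats (p = 0.00024 and 5e-05, adjusted p = 0.0175). Without the 2 rats of most extreme Nr1d1, r was -0.77 and -0.65, and the z difference ran from -0.755 to 0.485 (95% interval). Psmb8 and Psmb9, both subunits of the immunoproteasome, had r = 0.84 and rho = 0.80 in intolerant rats (p = 1e-05 and 3e-05, adjusted p = 0.000756, r = 0.76 without the 2 rats of most extreme Psmb8) and r = 0.79 and rho = 0.71 in normal rats (p = 3e-05 and 0.0002, adjusted p = 0.00238, r = 0.71 without them).

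**Figure D4:**
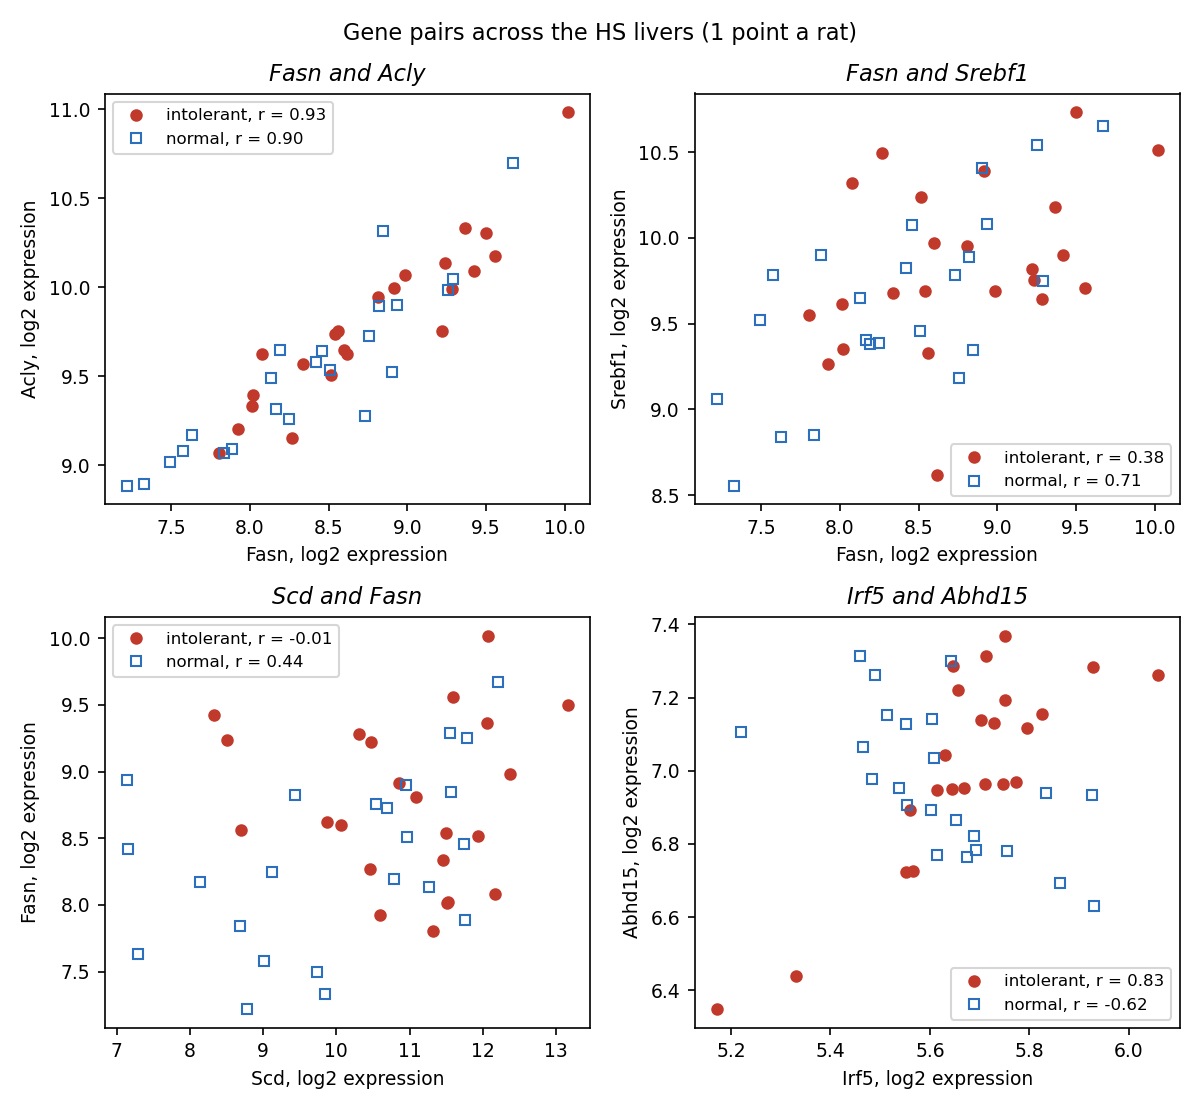
Log2 expression of the first gene (horizontal axis) and the second gene (vertical axis) of 4 pairs, 1 point a rat, intolerant rats as filled red circles and normal rats as open blue squares. Fasn and Acly lie on 1 line in both groups (r = 0.93 and 0.90), Fasn with Srebf1 and Scd with Fasn have a lower r in intolerant rats (0.38 and 0.71, -0.01 and 0.44), and Irf5 with Abhd15 slopes up in intolerant and down in normal rats (0.83 and -0.62). The difference between the groups passed after adjustment for none of the 4 pairs.

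By lists, the median r of oxidative phosphorylation genes over 780 pairs was 0.226 in intolerant and 0.372 in normal rats, and that of the interferon genes over 153 pairs was 0.302 and 0.460. Of the clock genes it was -0.011 and 0.198. Cholesterol synthesis was the most coherent list in both groups, with 0.746 in intolerant and 0.680 in normal rats. Markers of liver endothelium had 0.487 and 0.214, and those of Kupffer cells 0.640 and 0.623. The pairs of a list share genes and rats, and none of these medians was tested.

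**Figure D5:**
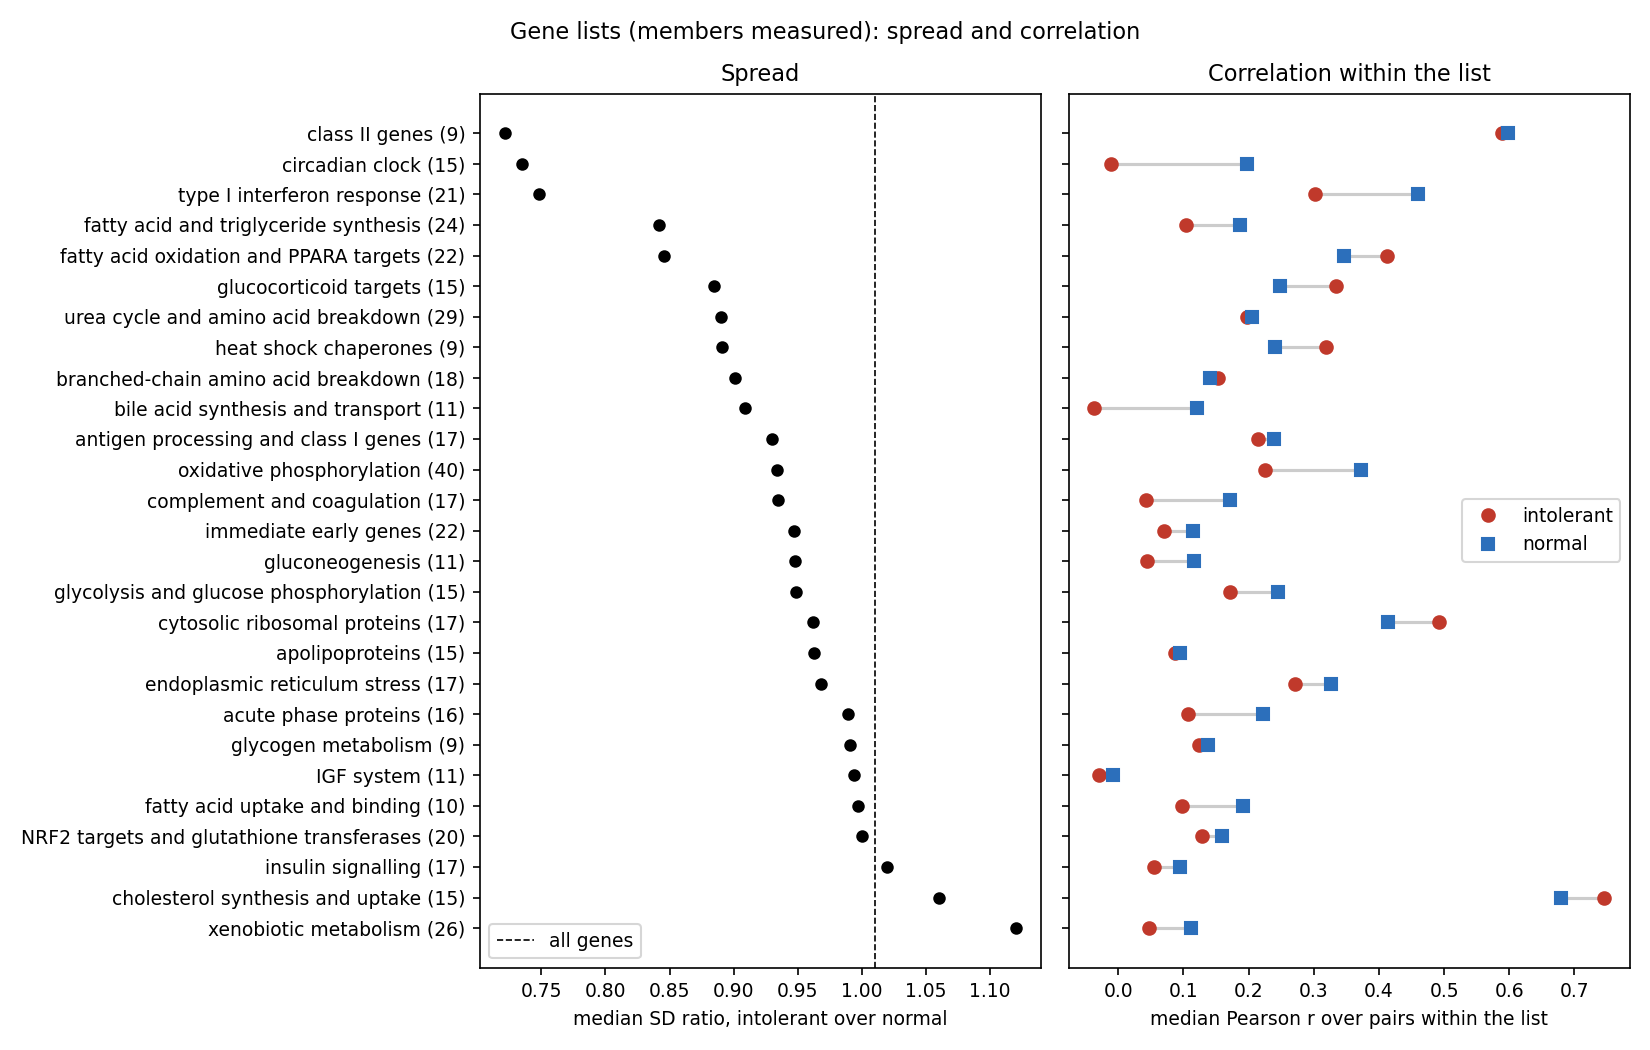
Gene lists in rows with the number of measured members, their median SD ratio of intolerant over normal rats (left axis, all genes dashed at 1.008), and the median Pearson r over pairs within the list (right axis) in intolerant (red circles) and normal rats (blue squares). Of the lists drawn, which leave out the cell type markers, class II, clock and interferon genes have the lowest SD ratios, from 0.722 to 0.748, and cholesterol synthesis the highest r in both groups, 0.746 and 0.680.

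The pairs of largest difference in z had r of opposite sign in the 2 groups. Irf5, an interferon regulatory factor of macrophages, and Abhd15, a hydrolase that insulin signalling uses to restrain fat breakdown in adipocytes, had r = 0.83 and rho = 0.72 in intolerant rats (p = 2e-05 and 0.0001, adjusted p = 0.00110) and r = -0.62 and rho = -0.71 in normal rats (p = 0.00147 and 0.00024, adjusted p = 0.0487). Without the 2 rats of most extreme Irf5, r was 0.61 and -0.57. The pair was picked for its difference in z of 1.899 (95% interval 1.28 to 2.52, adjusted p = 0.0789). That interval takes no account of the choice among all pairs. Neither do the permutation p-values within the groups, here and for the other pairs of largest difference.

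Bckdha, a subunit of the dehydrogenase of branched-chain keto acids, and Pon2, an antioxidant paraoxonase, had r = -0.36 and rho = -0.40 in intolerant rats (p = 0.0901 and 0.0625, adjusted p = 0.393, r = -0.37 without the 2 rats of most extreme Bckdha) and r = 0.89 and rho = 0.66 in normal rats (p = 1e-05 and 0.00083, adjusted p = 0.000123, r = 0.72 without them). Lamp2, a lysosomal membrane protein, and Tmem138, a membrane protein of cilia, had r = -0.66 and rho = -0.64 in intolerant rats (p = 0.00037 and 0.00142, adjusted p = 0.0315, r = -0.63 without the 2 rats of most extreme Lamp2) and r = 0.78 and rho = 0.64 in normal rats (p = 4e-05 and 0.00106, adjusted p = 0.00294, r = 0.61 without them). By Fisher's z the group difference did not pass for Bckdha with Pon2 (adjusted p = 0.108) or for Lamp2 with Tmem138 (adjusted p = 0.0789).

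Some of the largest differences rested on a single normal rat. Vat1 and Hm13, a signal peptide peptidase, had r = 0.93 and rho = 0.92 in intolerant rats (p = 1e-05 for each, adjusted p = 6.50e-06, r = 0.90 without the 2 rats of most extreme Vat1) but r = -0.09 and rho = 0.59 in normal rats (p = 0.730 and 0.00388, r = -0.24 without them). Hm13 ran from 9.69 over 9.93 to 10.46 in intolerant rats and from 6.75 over 9.96 to 10.6 in normal rats, so that 1 low rat set Pearson's value while the ranks were correlated in both groups. Copz1 and Uqcrfs1 with Hm13 showed the same discrepancy, with rho = 0.59 and -0.42 in normal rats beside r = -0.04 and 0.10. Other pairs leaned on intolerant rats of extreme Lrrc8b. In intolerant rats Lrrc8b had r = 0.88 and rho = 0.46 with Eprs1 (p = 0.00047 and 0.0273). With Med13l it had r = 0.60 and rho = 0.43 (p = 0.00438 and 0.0417). Without the 2 rats of most extreme Lrrc8b these r were 0.32 and 0.21. In normal rats r was -0.36 with Eprs1 and -0.82 with Med13l, and -0.20 and -0.64 without 2 such rats.

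On chromosome 20, RT1-CE10 and Ltb had r = 0.58 and rho = 0.48 in intolerant rats (p = 0.00412 and 0.0224, adjusted p = 0.0804, r = 0.45 without the 2 rats of most extreme RT1-CE10) and r = -0.33 and rho = -0.55 in normal rats (p = 0.119 and 0.00820, adjusted p = 0.430, r = -0.56 without them). RT1-Bb and Psmb8 had r = 0.73 and rho = 0.75 in intolerant rats (p = 5e-05 and 6e-05, adjusted p = 0.00937, r = 0.66 without the 2 rats of most extreme RT1-Bb) and r = 0.34 and rho = 0.31 in normal rats (p = 0.121 and 0.151, adjusted p = 0.426, r = 0.45 without them). The adjusted p of the group difference was 0.816 for the first pair and 0.980 for the second.

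Axes shared by all genes were compared last. The first 5 principal components of the 46 livers held 17.9%, 7.02%, 5.62%, 5.03% and 4.64% of the variance, and in two-sided permutation tests adjusted over the 5 the group means of the scores did not pass on any (adjusted p from 0.109 to 0.928). Components 4 and 5 had the smallest p, 0.0460 and 0.0218. On component 5, Ugt2b, Scd, Ubd, RT1-Bb and AA926063 were among the genes of highest weight and Gsta3, Cyp7a1 and Ltb among those of lowest weight. With the brighter probe sets alone component 4 passed (p = 0.00375, adjusted p = 0.0188), with mean scores of 3.40 ± 6.26 in intolerant and -3.40 ± 8.57 in normal rats (n = 23 each, ± SD).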

How the data were processed

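Total RNA from 46 HS rat livers was amplified in a two-cycle kit and hybridised to Affymetrix rat arrays, 1 per rat, per the labels' protocols. The authors' deposited table gives log2 values. Partek is named in the submitters' processing notes, and the background correction, summarisation and normalisation have no description in the sources used here, and neither do batches. Array medians lay between 5.33 and 5.40, and precision is set by how many arrays each group has.

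Groups were taken from the titles, since the descriptions of the intolerant rats also use the word normal. Means and spread were tested with limma 3.58.1 in R 4.3.3, and pairs, permutations (100000) and figures were made in Python 3.11.15 with numpy 2.4.6 and scipy 1.17.1. Scripts were tested on simulated data. Thresholds were an adjusted p of 0.05, and no filter was applied except for pairs. The 436 probe sets with several symbols and the 9780 without one stayed in the tests and out of the text. Gene order came from RefSeq GRCr8, where 14167 genes were found by identifier; the build behind the array is not given.

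Named were the 20 genes of largest difference with an unadjusted p under 0.01 and a mean above the median in either group, the 10 of smallest p for a wider and a narrower spread, the 6 pairs of largest z difference in each direction, fixed pairs, and up to 2 members per list for mean and for spread. The groups, lists and pairs were chosen with earlier results of these data known, and the chromosomal runs, 2-level genes, neighbouring pairs and motifs after seeing values. Alternatives are given at the end.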

Additional observations from a re-analysis of the deposited data

How the results depend on the processing

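No paired analysis was possible because the 2 groups share no replicate numbers. The count of probe sets that differ in mean, 0, became 1 with quantile normalisation, 4 without the 4 farthest rats (Psmb8, Gabbr1, Yeats4 and Spin2b), 12 with array weights (2 higher and 10 lower) and 185 when the first residual component was added to the model (140 higher and 45 lower, including Psmb8, Spin2b, Elovl5, Apon and Sdhd). That component was computed from these same values after centring within each group. It therefore left the differences unchanged and could only lower the residual variance, so the 185 calls are no independent support. Leaving out each of 46 rats gave 0 to 3 probe sets, with calls for intolerant rats 13 and 20 and normal rats 16, 21, 25 and 38. The count for spread, 0, became 1 with deviations from the mean (RT1-CE12) and 22 with the F test (17 wider and 5 narrower), and 0 to 1 on leaving out each rat, the call being Ubd without intolerant rat 4. The count of gene pairs, 0, became 7 with quantile normalisation and 1 with the first component removed, and 0 to 7 on leaving out each rat, with calls for 11 of the 46 rats (intolerant 7, 24, 33, 40 and 42; normal 1, 26, 27, 30, 36 and 39). The count of components that differ, 0, became 1 with brighter probe sets. The other settings listed at the outset kept these counts at 0, and the distance of rats kept its side of the threshold in each. Among named values, 2 reversed: Hspa1a in mean (0.02767 between medians in the rank test) and Pik3r1 in mean absolute deviation (0.0073 with the first component removed). The causes were not tested. Dim probe sets limit what can be seen of low transcripts.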
